A study of Mus musculus with 8 samples.

Results

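The 10 genes described here are effectors and targets of the canonical Wnt pathway. They are the transcription factors Tcf7, Lef1, Tcf7l1 and Tcf7l2, the co-activator Ctnnb1 (β-catenin), and the commonly used target genes Axin2, Sp5, Nkd1, Lgr5 and Dkk1. They were chosen by name from the 38987 gene identifiers of the files, with earlier results of these data known. Each name matched 1 protein-coding gene. RNA-seq was made from mouse chemically induced pluripotent stem cells (CiPSC), which are somatic cells turned pluripotent with small molecules, and from the cells they came from. Levels are FPKM (fragments scaled to transcript length and to library size), 1 library per sample, 8 in all.

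NSC-CiPSC were 3 lines, numbered 1, 2 and 3, made from neural stem cells (NSC). IEC-CiPSC were 2 lines, numbered 10 and 13, made from intestinal epithelial cells (IEC). NSC were 1 library of cultured cells from E13.5 embryos at passage 2, IEC were 1 library of primary small intestinal cells from E13.5 embryos, and embryonic stem cells (ESC) were 1 library of the R1 line. The strain label of NSC reads C57BL/6J-Tg(GOFGFP)11Imeg/RbrcxICR. The other NSC- and IEC-derived libraries carry the same label except that its number 11 runs on from 12 to 17, while ESC are labelled 129X1 x 129S1, so every CiPSC line differed from ESC in strain as well. The labels do not say whether a line is 1 clone or whether lines of a group share an animal. The p-values therefore rest on how far these particular lines scatter. The compounds used and the medium of each line at harvest are not given in the sources used here, so no library is tied to a dose of a Wnt or GSK3 compound.

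All 8 pluripotency markers reached FPKM 10 in each CiPSC line and in ESC, and 0 of 8 did in NSC and IEC. In NSC, 7 of 8 neural stem cell markers reached that level. The IEC label went against its markers. Only 3 of 10 markers of intestinal epithelium reached FPKM 10 in that library (Epcam, Cdh1 and Lgals4), with Cdx2 at 0.0912 FPKM and Muc2 at 0. That count was also 2 or 3 of 10 in each CiPSC line and 2 of 10 in ESC, so it does not set IEC apart from them. In IEC, 10 of 10 mesenchyme, 6 of 6 smooth muscle, 6 of 7 leukocyte and 6 of 6 liver and pancreas markers reached FPKM 10. "IEC" below therefore means the library labelled so, and every comparison with it is a comparison with that mixture of markers. In such bulk samples, fewer cells of a type and less RNA per cell cannot be told apart.

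In canonical Wnt signalling, a Wnt protein bound to a Frizzled receptor and its co-receptor stops the destruction complex, which contains the kinase GSK3, from marking β-catenin for degradation. β-catenin then enters the nucleus and binds the Tcf/Lef factors, which recognise short motifs of the kind printed below. Tcf7 and Lef1 are mostly activators with β-catenin, and Tcf7l1 is mostly a repressor. In mouse ESC, Tcf7l1 restrains pluripotency genes, and inhibitors of GSK3, which stabilise β-catenin, relieve that restraint and are widely used to keep ESC undifferentiated. β-catenin is controlled largely at the protein level, which RNA does not show, and gene-level FPKM does not separate the isoforms of Tcf7 and Lef1 that lack the β-catenin-binding domain.

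The sequence that the Tcf/Lef factors read is shown first for Sp5 and Dkk1, the genes with a single promoter window and 2 matches in it. Of the 4 motifs searched on both strands, the first was CTTTGAT, a further form was CTTTGAA, another was CTTTGTA, and the last was CTTTGTT. They were sought in windows that run from 250 bases before to 50 bases after each RefSeq start site (GRCm38.p6, the same coordinates as mm10). Windows were found for 9 of the 10 genes, 15 windows in all. The 250 bases before the start of Sp5 (chr2:70474673-70474922, + strand) and of Dkk1 (chr19:30549497-30549746, − strand) follow, 5′ to 3′, with the matches in capitals.
Sp5: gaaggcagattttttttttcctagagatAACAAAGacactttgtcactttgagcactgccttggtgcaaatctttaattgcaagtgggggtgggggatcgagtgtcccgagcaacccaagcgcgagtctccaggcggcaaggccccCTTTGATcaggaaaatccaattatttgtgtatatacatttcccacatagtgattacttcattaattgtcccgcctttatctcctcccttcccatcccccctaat
Dkk1: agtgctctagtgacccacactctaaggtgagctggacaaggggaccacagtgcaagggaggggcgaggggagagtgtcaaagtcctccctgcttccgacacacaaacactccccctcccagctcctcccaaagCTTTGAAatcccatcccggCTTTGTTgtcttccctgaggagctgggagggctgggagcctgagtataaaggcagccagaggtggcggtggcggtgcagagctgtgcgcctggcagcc
Short stretches around the matches at a further start site within Lef1 (chr3:131156136-131156164, + strand) and within Tcf7l2 (chr19:55895296-55895324, + strand) are given for comparison, matches in capitals.
Lef1: caacctcagaaTACAAAGtaggattgcat
Tcf7l2: aaaatatcaggCTTTGTTcttttgattga
The matches start 222 and 104 bases before the start site in Sp5, 117 and 98 bases before it in Dkk1, 147 bases before the further start in Lef1 and 14 bases before that in Tcf7l2. The windows of Axin2, Tcf7, Tcf7l1, Nkd1 and Ctnnb1 held none of these letters. Of all 32851 promoter windows, 16.9% held at least 1 of the 4 motifs, from 3.63% with CTTTGTA to 5.85% with CTTTGTT. A match is a description of the letters, and promoters were not assayed here.

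Tests were made on log2(FPKM + 1) with limma over 17011 genes, with Benjamini-Hochberg adjustment. A call needs a change of 2-fold or more together with an adjusted p below 0.05. A fold change on that scale understates the change of genes of low level. NSC, IEC and ESC are single libraries and were assumed to vary like the CiPSC lines. Dkk1 never reached FPKM 1, so 9 of the 10 genes were tested. Against NSC, 3 of these 9 were called higher in NSC-CiPSC (Tcf7, Tcf7l1 and Lef1) and 2 lower (Nkd1 and Tcf7l2), against 18.3% and 20.7% of all genes tested in each direction (39.0% in either). Against IEC, 2 were called higher in IEC-CiPSC (Tcf7 and Lef1) and 2 lower (Nkd1 and Tcf7l2), against 19.1% and 26.2% (45.3% in either). The plot of FPKM by library shows every value behind these counts.

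**Figure D1:**
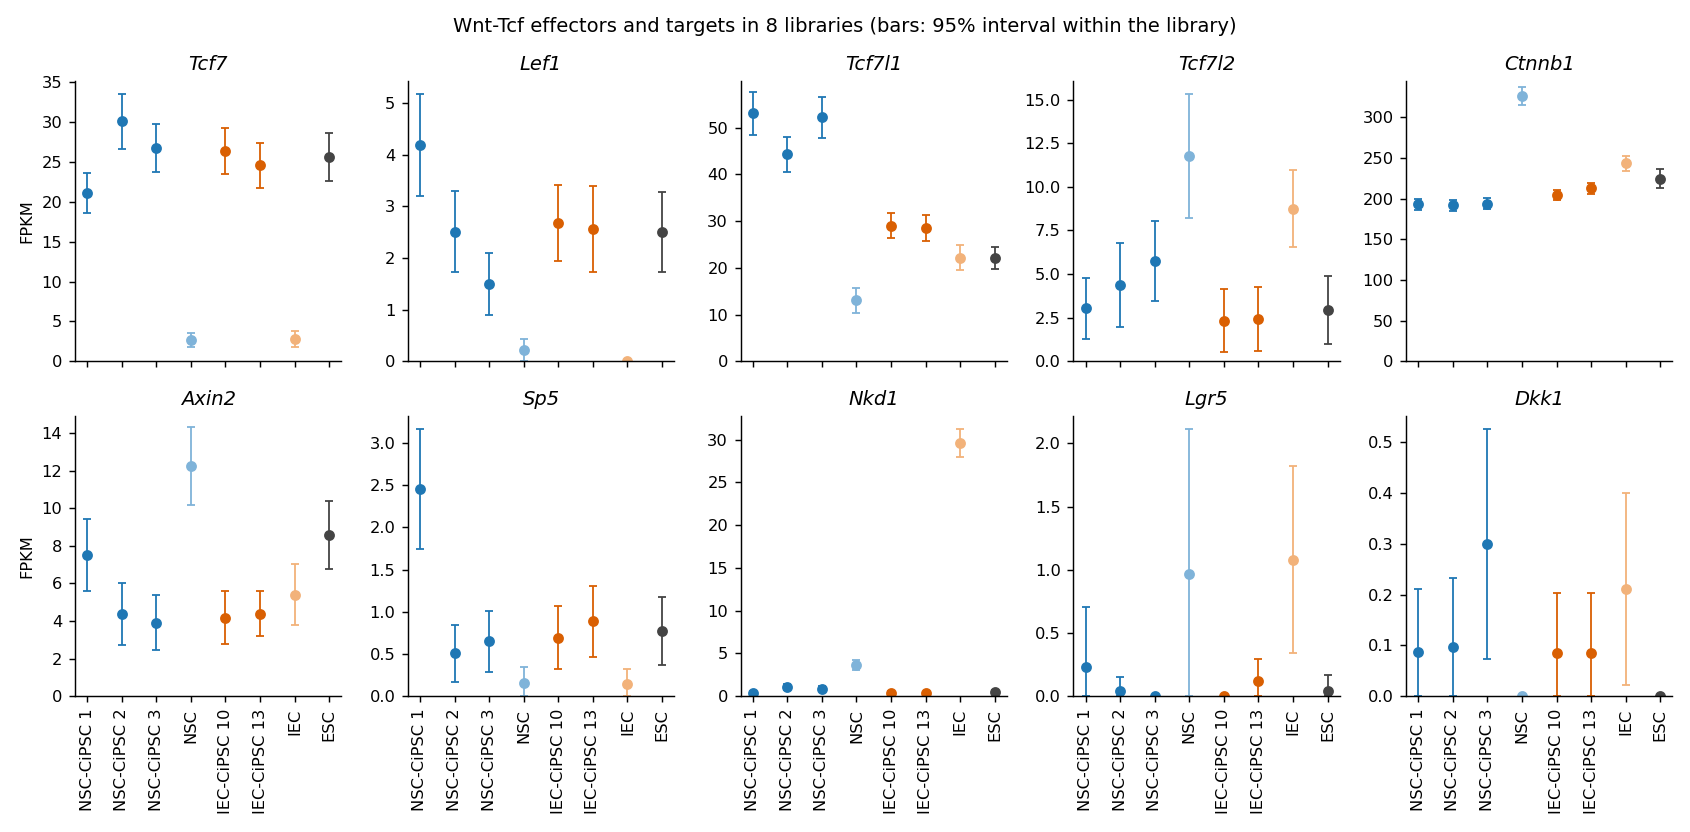
FPKM of the 10 genes in each of the 8 libraries, 1 panel per gene with its own axis from 0, with NSC-CiPSC lines beside NSC and IEC-CiPSC lines beside IEC, and ESC at the right. Points are FPKM and bars the 95% interval that the files give within a library. Tcf7 stands between 21.1 and 30.1 FPKM in the 5 CiPSC lines and at 25.6 FPKM in ESC, above NSC and IEC, while Nkd1 is highest in IEC at 29.6 FPKM.

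Tcf7 (chr11:52252371-52283014), the factor also known as TCF1, had the largest log2 rise of the 9 genes in both routes with a pseudocount of 1, while with 0.1 the rise of Lef1 against IEC was larger, 4.77 against 3.12. It had 21.1, 30.1 and 26.7 FPKM in NSC-CiPSC lines 1, 2 and 3, against 2.69 FPKM in NSC. In IEC-CiPSC lines 10 and 13 it had 26.4 and 24.5 FPKM, against 2.83 FPKM in IEC. Every line stood far above its cell of origin and near the 25.6 FPKM of ESC. The log2 change was 2.79 ± 0.23 (SE) for IEC-CiPSC against IEC (limma, adjusted p = 0.00116). For NSC-CiPSC against NSC the rise was 7.24-fold (95% interval 4.78 to 10.9, limma, adjusted p = 0.00123).

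Lef1 (chr3:131110471-131224356), the other activating factor, was low in every library. NSC-CiPSC lines 1, 2 and 3 had 4.19, 2.51 and 1.50 FPKM, against 0.216 FPKM in NSC. IEC-CiPSC lines had 2.68 and 2.56 FPKM, and the IEC library listed the gene at 0. All 5 lines were above both cells of origin, and the 3 NSC-CiPSC lines spread on either side of the 2.50 FPKM of ESC. Lef1 rose by 1.55 ± 0.43 on the log2 scale against NSC (limma, adjusted p = 0.0412) and 1.86 ± 0.46 against IEC (limma, adjusted p = 0.0276). These sizes depend on the pseudocount, and with 0.1 in place of 1 they were 3.05 against NSC and 4.77 against IEC. The call against NSC was lost without NSC-CiPSC line 2 (adjusted p = 0.0960), without IEC-CiPSC line 10 (0.0947) or 13 (0.0948), without the filter on low values (0.0657), under quantile normalization (0.0732) and in a fit to these 2 groups alone (0.0927). The call against IEC was lost without NSC-CiPSC line 2 (0.0626) or IEC-CiPSC line 10 (0.102) or 13 (0.0981).

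Tcf7l1 (chr6:72626378-72789254), the repressor also known as TCF3, was the member of the family with the highest FPKM in 7 of the 8 libraries. NSC-CiPSC lines 1, 2 and 3 had 53.0, 44.3 and 52.2 FPKM, against 13.1 FPKM in NSC. IEC-CiPSC lines 10 and 13 had 29.1 and 28.6 FPKM, against 22.2 FPKM in IEC, and ESC had 22.1 FPKM. The 3 NSC-CiPSC lines were higher than all 5 other libraries. The rise against NSC was 1.85 ± 0.13 on the log2 scale (limma, adjusted p = 0.000970). The difference between IEC-CiPSC and IEC was 0.36 ± 0.13 and was not called (limma, adjusted p = 0.0806).

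Tcf7l2 (chr19:55741810-55933654), a factor also known as TCF4 that is prominent in the intestinal epithelium and the brain, was lower in the CiPSC lines. It had 3.06, 4.37 and 5.73 FPKM in NSC-CiPSC lines 1, 2 and 3, against 11.8 FPKM in NSC. In IEC-CiPSC lines it had 2.33 and 2.43 FPKM, against 8.76 FPKM in IEC. All 5 lines were below both cells of origin, and ESC had 2.95 FPKM. Tcf7l2 had a log2 change of -1.27 ± 0.32 against NSC (limma, adjusted p = 0.0300) and -1.53 ± 0.34 against IEC (limma, adjusted p = 0.0196). Its call against NSC was lost without NSC-CiPSC line 2 (adjusted p = 0.0743), without IEC-CiPSC line 10 (0.0768) or 13 (0.0767) and in a fit to these 2 groups alone (0.0763). The call against IEC was lost without IEC-CiPSC line 10 (0.0821) or 13 (0.0790).

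The 4 factors were also set side by side as shares of their summed FPKM. FPKM is a level per length of transcript, so shares of it compare genes. The sum was 81.4, 81.2 and 86.1 FPKM in NSC-CiPSC lines 1, 2 and 3, against 27.7 FPKM in NSC. It was 60.4 and 58.1 FPKM in IEC-CiPSC lines 10 and 13, against 33.8 FPKM in IEC, and 53.2 FPKM in ESC. Tcf7l2 held 3.76% to 6.66% of the sum in NSC-CiPSC, against 42.4% in NSC. It held 3.86% and 4.18% in IEC-CiPSC, against 25.9% in IEC, and 5.54% in ESC. Tcf7 held 25.9% to 37.0% in NSC-CiPSC, against 9.69% in NSC, and 43.6% and 42.3% in IEC-CiPSC, against 8.39% in IEC. In ESC Tcf7 held 48.1%, more than Tcf7l1 with 41.6%, and this was the one library in which Tcf7l1 did not lead. The FPKM ratio of Tcf7l1 to Tcf7 was 2.52, 1.47 and 1.96 in NSC-CiPSC lines, 1.10 and 1.16 in IEC-CiPSC lines and 0.865 in ESC, against 4.87 in NSC and 7.84 in IEC. These shares restate the FPKM values of the 4 genes and were not tested as such. Those of Tcf7l2 carry its wide intervals within libraries.

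**Figure D2:**
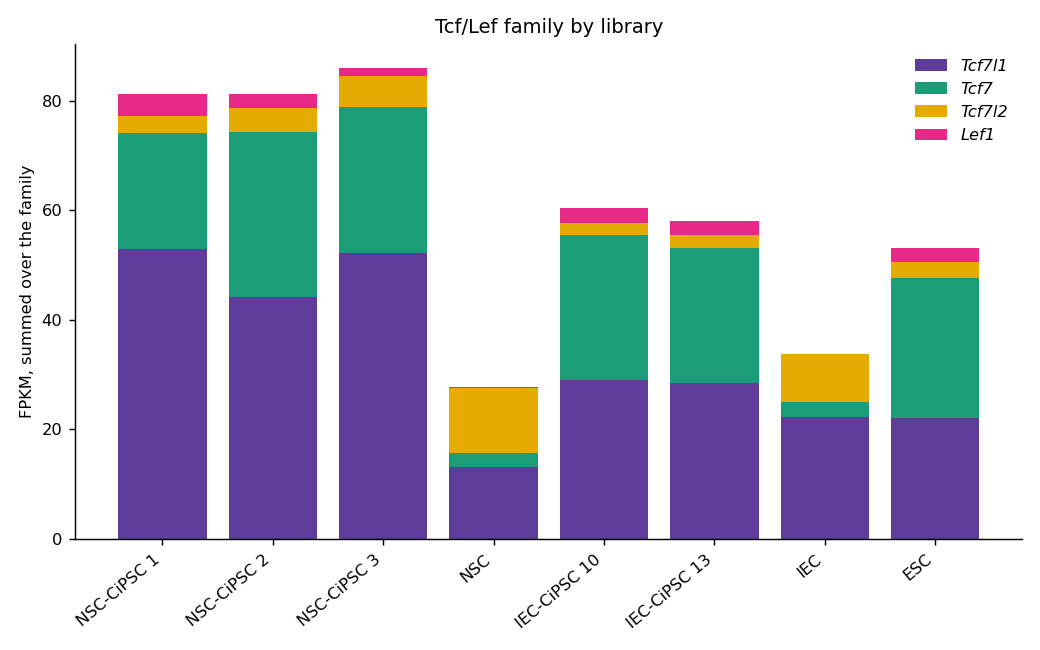
Stacked bars of the FPKM of Tcf7, Lef1, Tcf7l1 and Tcf7l2 in each of the 8 libraries, from 0. The 3 NSC-CiPSC lines have the highest sums, 81.2 to 86.1 FPKM, and Tcf7l2 takes 42.4% of the NSC bar and 25.9% of the IEC bar, but at most 6.66% in any CiPSC line.

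Ctnnb1 (chr9:120929216-120960507), which encodes β-catenin, was the most highly expressed of the 10 genes in every library. NSC-CiPSC lines had 192.7 ± 0.87 FPKM (SD, n = 3), against 326 FPKM in NSC. IEC-CiPSC lines had 208 ± 5.7 FPKM (SD, n = 2), against 243 FPKM in IEC, and ESC had 224 FPKM. All 5 lines lay below ESC and below both cells of origin. The log2 change was -0.76 ± 0.05 against NSC (limma, adjusted p = 0.000911) and -0.22 ± 0.05 against IEC (limma, adjusted p = 0.0259), both under 2-fold. The fall against IEC missed the p threshold without IEC-CiPSC line 10 (adjusted p = 0.117) or 13 (0.0738), without NSC-CiPSC line 3 (0.0720) and in a fit to these 2 groups alone (0.0666).

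Axin2 (chr11:108920349-108950783), a scaffold of the destruction complex and a broad feedback target of the pathway, did not pass the test in either route. NSC-CiPSC lines 1, 2 and 3 had 7.50, 4.38 and 3.91 FPKM, against 12.2 FPKM in NSC. IEC-CiPSC lines had 4.18 and 4.39 FPKM, against 5.39 FPKM in IEC, and ESC had 8.58 FPKM. NSC had the highest and ESC the second highest value, and every CiPSC line except NSC-CiPSC line 1 was below IEC. The log2 change was -1.12 ± 0.36 against NSC (limma, adjusted p = 0.0593). Without NSC-CiPSC line 1 it was -1.37 and was called (limma, adjusted p = 0.00486). Against IEC the log2 change was -0.28 ± 0.38 (limma, adjusted p = 0.570), and its sign turned under quantile normalization, at 0.25.

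Sp5 (chr2:70474923-70477729), a transcription factor that β-catenin and Tcf/Lef induce directly, was near the detection limit in the cells of origin. It had 2.45, 0.509 and 0.652 FPKM in NSC-CiPSC lines 1, 2 and 3, against 0.161 FPKM in NSC. In IEC-CiPSC lines 10 and 13 it had 0.693 and 0.888 FPKM, against 0.149 FPKM in IEC, and ESC had 0.771 FPKM. The intervals in the files imply 48, 9 and 13 fragments in the NSC-CiPSC lines and 14 and 18 in the IEC-CiPSC lines, against 3 in NSC and 3 in IEC, with 15 in ESC. All 5 lines were above both cells of origin, and line 1 stood apart from the other 4. Sp5 had a log2 change of 0.82 ± 0.53 against NSC (limma, adjusted p = 0.260) and 0.64 ± 0.57 against IEC (limma, adjusted p = 0.383), so neither passed the test. Sp5 reached FPKM 1, the level needed for the test, only in NSC-CiPSC line 1. The interval of the change against NSC ran from 0.639-fold to 4.88-fold on the log2(FPKM + 1) scale. With a pseudocount of 0.1 the log2 changes were 2.02 against NSC (limma, adjusted p = 0.137) and 1.83 against IEC (0.180), and the plain ratio of mean FPKM against NSC was 7.50.

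Nkd1 (chr8:88521344-88594887), an inhibitor that binds Dishevelled and is itself a target, was lower in the CiPSC lines. NSC-CiPSC lines 1, 2 and 3 had 0.400, 1.09 and 0.854 FPKM, against 3.62 FPKM in NSC. IEC-CiPSC lines had 0.388 and 0.335 FPKM, against 29.6 FPKM in IEC, and ESC had 0.543 FPKM. The IEC library was far above all others, and NSC came next. The log2 change was -1.39 ± 0.25 against NSC (limma, adjusted p = 0.0124) and -4.49 ± 0.27 against IEC (limma, adjusted p = 0.000458). With a pseudocount of 0.1 the change against NSC was -2.17. In IEC, the library with the highest Nkd1, the summed level of the 10 mesenchyme markers was 7508 FPKM, against 118.8 and 127.9 FPKM in IEC-CiPSC. Liver and pancreas markers summed to 7224 FPKM in IEC, against 0.101 and 0.243 FPKM in IEC-CiPSC. Smooth muscle markers summed to 3982.5 FPKM, against 63.7 and 74.6 FPKM, and leukocyte markers to 3701 FPKM, against 13.1 and 10.1 FPKM. The part of any of these cell types in the Nkd1 difference was not tested.

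Lgr5 (chr10:115450311-115587780), an R-spondin receptor and the marker of intestinal stem cells, was at or below about 1 FPKM in every library. It had 0.229 and 0.0438 FPKM in NSC-CiPSC lines 1 and 2 and was listed at 0 in line 3, against 0.966 FPKM in NSC. It was listed at 0 in IEC-CiPSC line 10 and had 0.122 FPKM in line 13, against 1.08 FPKM in IEC, and 0.0423 FPKM in ESC. Both cells of origin were above all pluripotent libraries, but the 95% interval within the NSC library reached down to 0. Lgr5 entered the test only through the IEC library, the one above FPKM 1, so it was tested only because it was high there. On the log2 scale Lgr5 changed by -0.86 ± 0.14 against NSC (limma, adjusted p = 0.0102) and -0.97 ± 0.15 against IEC (limma, adjusted p = 0.00741), under 2-fold on a scale that adds 1 to each FPKM. With a pseudocount of 0.1 the changes were -2.67 against NSC (adjusted p = 0.0598) and -2.99 against IEC, which was then called. The fall against IEC missed the p threshold under quantile normalization, at -0.51 (0.0609), and passed 2-fold without IEC-CiPSC line 13, at -1.06. Over the alternatives its adjusted p ran from 0.00467 to 0.0609.

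Dkk1 (chr19:30545863-30549665), a secreted inhibitor that binds the co-receptors and is also a target, was barely detected. It had 0.0871, 0.0965 and 0.299 FPKM in NSC-CiPSC lines 1, 2 and 3 and was listed at 0 in NSC. It had 0.0844 and 0.0840 FPKM in IEC-CiPSC lines, against 0.211 FPKM in IEC, and was listed at 0 in ESC. The files imply 2, 2 and 7 fragments in the NSC-CiPSC lines and 2 and 2 in the IEC-CiPSC lines, against 5 in IEC. Only the fit without the filter on low values tested Dkk1. There its log2 change was 0.21 against NSC (limma, adjusted p = 0.274) and -0.16 against IEC (limma, adjusted p = 0.405). The motif matches printed above for Sp5 and Dkk1 thus stand before genes whose levels were at most 2.45 FPKM in all 8 libraries.

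**Figure D3:**
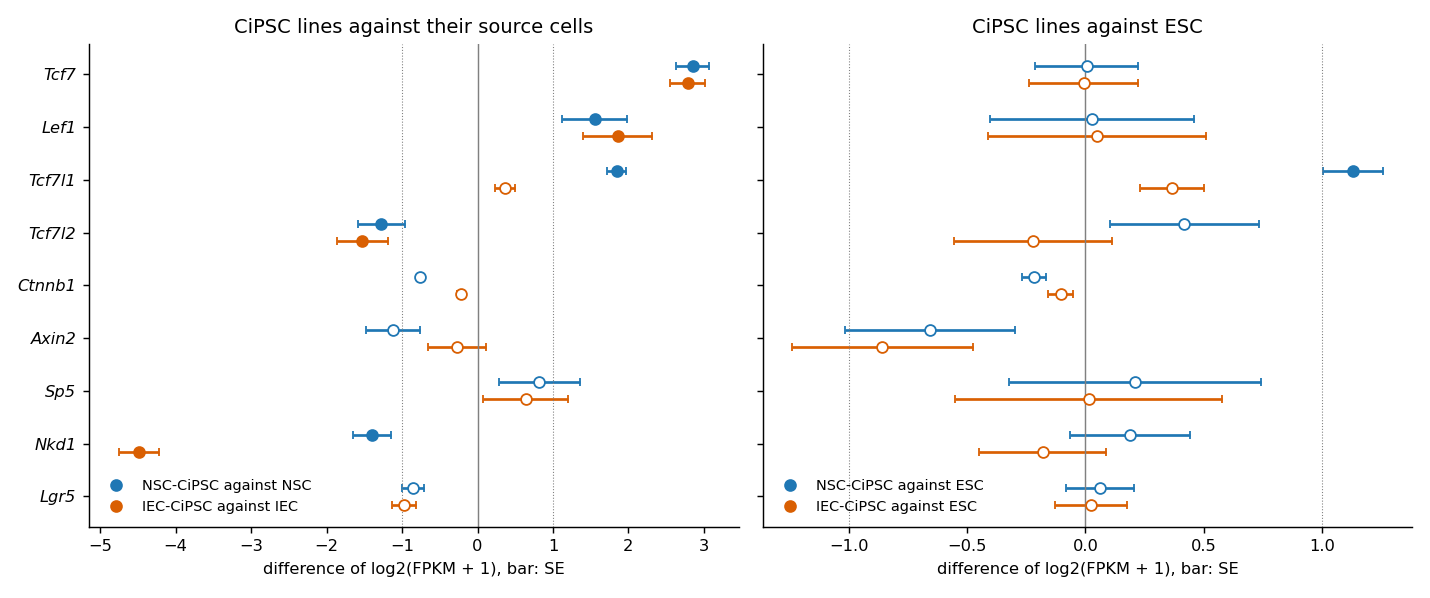
Log2 change on the log2(FPKM + 1) scale, with its standard error, of the 9 tested genes in NSC-CiPSC against NSC and IEC-CiPSC against IEC (left), and in both CiPSC groups against ESC (right). Filled points are called, open points are not, and dotted lines mark a 2-fold change; Tcf7 is at 2.79 for IEC-CiPSC against IEC, and Nkd1 lies lowest at -4.49.

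The comparison with ESC asks how close the lines came to an established pluripotent line. Tcf7l1 was higher in NSC-CiPSC, at 49.8 ± 4.8 FPKM (SD, n = 3), against 22.1 FPKM in ESC. This was the single call among the 9 genes, with a log2 change of 1.13 ± 0.13 (limma, adjusted p = 0.0312), where 0.946% of all genes tested were called higher and 2.81% in either direction. That call was lost without NSC-CiPSC line 3 (adjusted p = 0.129), without IEC-CiPSC line 10 (0.125) or 13 (0.126) and in a fit to these 2 groups alone (0.114). Each of the 3 lines was still at least 44.3 FPKM. In NSC-CiPSC against ESC, 2 of the 9 genes had an unadjusted p under 0.05, Tcf7l1 and Ctnnb1. Ctnnb1 was at 0.860-fold (limma, adjusted p = 0.111), with an interval of 0.781-fold to 0.947-fold. No call was made by limma for IEC-CiPSC against ESC, where 0 of the 9 genes had an unadjusted p under 0.05 and 3.36% of all genes were called (1.63% higher, 1.73% lower). The interval for Tcf7l1 in IEC-CiPSC against ESC ran from 0.997-fold to 1.67-fold. Axin2 was 0.551-fold in IEC-CiPSC against ESC, with an interval of 0.267-fold to 1.14-fold. For Tcf7 the interval was 0.663-fold to 1.52-fold in NSC-CiPSC against ESC and 0.641-fold to 1.54-fold in IEC-CiPSC against ESC. Both CiPSC groups were set against the same ESC library.

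NSC-CiPSC and IEC-CiPSC were then compared with each other, to see whether the origin left a difference. None of the 9 genes was called by limma, 2 had an unadjusted p under 0.05 (Tcf7l1 and Ctnnb1), and 4.32% of all genes were called (1.56% higher, 2.76% lower). Tcf7l1 was higher in all 3 NSC-CiPSC lines, 49.8 ± 4.8 FPKM (SD, n = 3), than in the IEC-CiPSC lines, 28.8 ± 0.36 FPKM (SD, n = 2). Its log2 difference of 0.77 ± 0.10 passed the p threshold (limma, adjusted p = 0.0282) but was 1.70-fold, under the size set for a call. The p threshold was missed without NSC-CiPSC line 3 (adjusted p = 0.115) and without IEC-CiPSC line 10 (0.179) or 13 (0.184). Ctnnb1 was at 0.925-fold (limma, adjusted p = 0.168). Tcf7l2 was at 1.56-fold, with an interval of 0.969-fold to 2.51-fold. The other 6 genes had unadjusted p-values of at least 0.136.

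The difference between the changes along the neural route (NSC-CiPSC against NSC) and the intestinal route (IEC-CiPSC against IEC) was tested as an interaction. Of the 9 genes, 2 were called, Nkd1 and Tcf7l1, against 30.5% of all genes. Nkd1 fell by less along the neural route, by a log2 difference of 3.10 ± 0.37 (limma, adjusted p = 0.00565). Tcf7l1 rose by more along the neural route, by 1.49 ± 0.18 (limma, adjusted p = 0.00645). Ctnnb1 fell by more along the neural route, with a difference of -0.53 ± 0.07 (limma, adjusted p = 0.00867), under 2-fold. Such a difference holds the gap between the cells of origin as well as that between the lines. For Nkd1, NSC and IEC had 3.62 and 29.6 FPKM, and for Ctnnb1 326 and 243 FPKM. For Axin2 the difference of -0.85 was not called (limma, adjusted p = 0.277), but it was called without NSC-CiPSC line 1, at -1.09 (limma, adjusted p = 0.0208).

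NSC-CiPSC line 1 stood apart from lines 2 and 3 for some genes, such as Sp5, but not for all. For Tcf7l1, lines 1 and 3 were close, at 53.0 and 52.2 FPKM, and line 2 had 44.3 FPKM. Line 1 was the highest of the 3 NSC-CiPSC lines for 5 of the 9 tested genes (Axin2, Sp5, Lgr5, Lef1 and Tcf7l1), or 55.6%. It was highest for 33.5% of all genes tested. Sp5 entered the test only through line 1, so its place in that count was fixed by the filter. Lgr5 was at most 0.229 FPKM in these 3 lines. Line 1 was the lowest for 3 of the 9 (Nkd1, Tcf7 and Tcf7l2), or 33.3%, against 43.0% of all genes. The median absolute log2 difference between line 1 and lines 2 and 3 was 0.493 over the 9 genes, against 0.235 over all genes. Over the 98 other tested genes of the pathway, line 1 was highest for 38.8% and lowest for 45.9%, with a median difference of 0.275, near the values for all genes. The 3 pathway genes that follow were picked for their high values in line 1. Wnt8a, a ligand of the early embryo, had 4.09 FPKM in line 1 and 0.557 and 0.617 FPKM in lines 2 and 3. Myc, a growth regulator and Wnt target, had 21.0 FPKM in line 1 and 1.54 and 2.53 FPKM in lines 2 and 3. T (Brachyury), a mesoderm factor, had 1.83 FPKM in line 1 and 0.228 and 0.775 FPKM in lines 2 and 3. With 1 library per line, a difference of the line and of its library cannot be told apart.

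Other genes of the pathway were described from 8 lists of 109 genes, of which 98 were tested. Against NSC, 21 of these 98 were called higher and 28 lower in NSC-CiPSC, where 18.3% of all genes were called higher and 20.7% lower. Against IEC, 15 were called higher and 40 lower in IEC-CiPSC, where 19.1% of all genes were called higher and 26.2% lower. The counts of single lists below are to be read against these same shares, and most lists are short. Some genes reached FPKM 1, the level needed for the test, only in a cell of origin. Wnt2b, Wnt16, Rspo2, Rspo3, Dkk2 and Frzb were among those that did so only in IEC, and Wnt7a only in NSC. Their fall against that library was fixed by the filter, and it enters the counts and medians given here. The median log2 change over the 98 was -0.04 against NSC and -0.81 against IEC, where the medians of all genes were 0.03 and -0.03. These lists overlap none of the 10 genes, and the plot by list shows each gene.

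**Figure D4:**
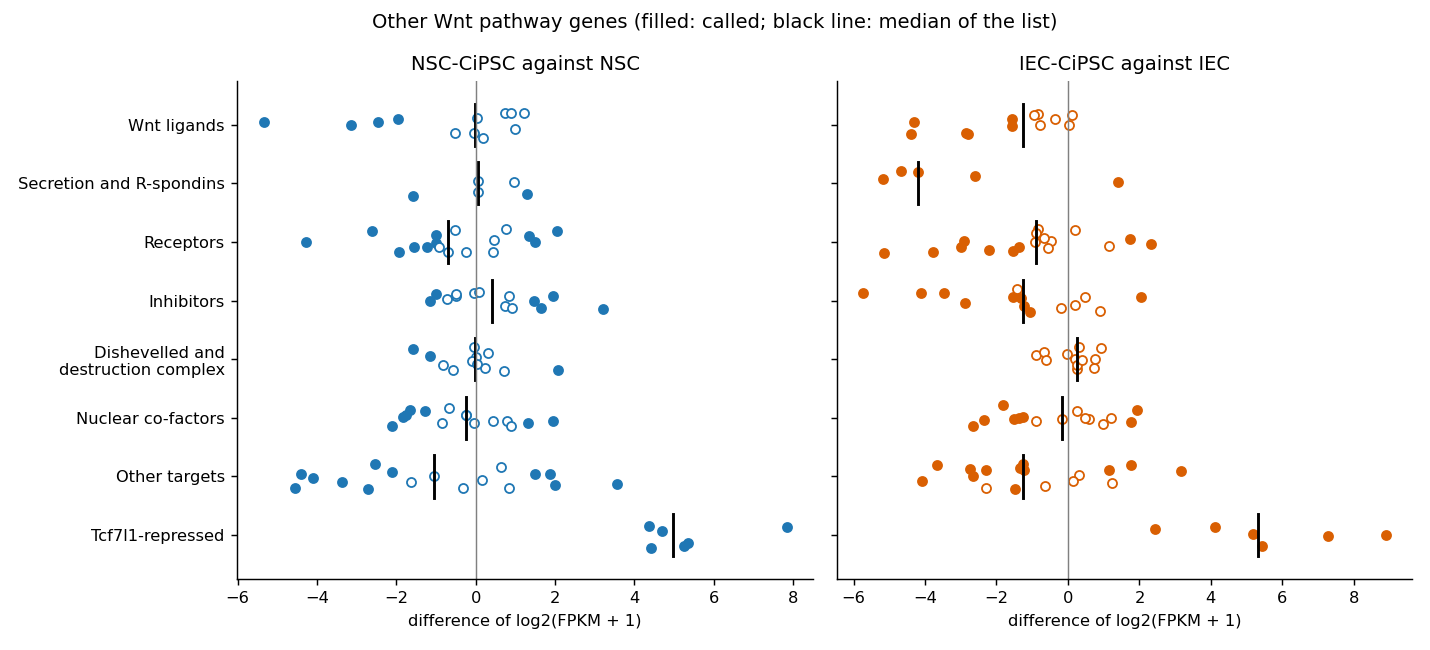
Log2 change of each tested gene of the 8 Wnt pathway lists in NSC-CiPSC against NSC and in IEC-CiPSC against IEC, with filled points for called genes, open points for the others and a black line at each list's median. The 6 genes repressed by Tcf7l1 in mouse ESC lie above 0 in both panels, and the secretion and R-spondin genes lie lowest against IEC, with a median of -4.21. Of that last list, Rspo2 and Rspo3 were tested only because they were high in IEC.

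Of the Wnt ligands, 4 of 12 tested were called lower and 0 higher in NSC-CiPSC against NSC, with a median log2 change of -0.01. In IEC-CiPSC against IEC, 6 of 12 were called lower and 0 higher, with a median of -1.25. Of the genes called lower, Wnt2b and Wnt16 were tested only because they were high in IEC. Wnt7a, a ligand of the developing brain, had 0.192 to 0.217 FPKM in NSC-CiPSC, against 48.0 FPKM in NSC, and was tested only through NSC. Wnt5a, a mostly non-canonical ligand, had 0.386 and 0.271 FPKM in IEC-CiPSC, against 26.8 FPKM in IEC. Wls, which carries Wnt proteins to the cell surface, fell by 1.59 on the log2 scale against NSC and by 4.21 against IEC. Among the 5 secretion and R-spondin genes, 1 was called higher and 1 lower against NSC, and 1 higher and 4 lower against IEC. Rspo3, an Lgr receptor ligand, had 0.0857 and 0.0427 FPKM in IEC-CiPSC, against 37.4 FPKM in IEC. Rspo2 and Rspo3 were tested only because they were high in IEC.

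Of 17 receptors, 3 were called higher and 7 lower against NSC (all genes 18.3% and 20.7%), and 2 higher and 7 lower against IEC (all genes 19.1% and 26.2%). Fzd1 fell by 4.27 on the log2 scale in NSC-CiPSC against NSC and by 5.14 in IEC-CiPSC against IEC. Fzd7, a Frizzled receptor used by ESC, had 13.7, 19.8 and 19.8 FPKM in NSC-CiPSC, against 3.51 FPKM in NSC, and rose by 2.04. Of 14 secreted and membrane inhibitors, 4 were called higher and 2 lower against NSC, with a median of 0.41. Against IEC 1 was called higher and 8 lower, with a median of -1.26. Sfrp2, a secreted Wnt-binding protein, was called in opposite directions, higher in NSC-CiPSC and lower in IEC-CiPSC than in the cell of origin. It had 11.9, 11.9 and 10.9 FPKM in NSC-CiPSC, against 2.28 FPKM in NSC, and 4.96 and 4.04 FPKM in IEC-CiPSC, against 291 FPKM in IEC. Notum, a secreted feedback inhibitor that strips a lipid from Wnt proteins, had 8.91, 5.88 and 3.65 FPKM in NSC-CiPSC, against 1.16 FPKM in NSC, and rose by 1.66.

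Among the Dishevelled and destruction complex genes in NSC-CiPSC against NSC, where 39.0% of all genes were called, 1 of 12 was called higher (Dvl2, 2.07 on the log2 scale) and 2 lower (Dvl3, -1.58, and the kinase Gsk3b, -1.15). In IEC-CiPSC against IEC, limma called 0 of 12, where 45.3% of all genes were called, and 6 had an unadjusted p under 0.05. Of 15 nuclear co-factors, 2 were called higher and 5 lower against NSC, and 2 higher and 6 lower against IEC. Hdac1, a deacetylase of co-repressor complexes, rose by 1.94 against NSC and by 1.92 against IEC. Ctnnbip1, which blocks the contact of β-catenin with Tcf factors, fell by 2.11 against NSC.

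Of 17 other genes commonly listed as Wnt targets, 4 were called higher and 7 lower against NSC (median -1.05), and 3 higher and 9 lower against IEC (median -1.25). In NSC-CiPSC against NSC, Sox9 fell by 4.40 on the log2 scale, Cd44 fell by 4.11 and Id2 fell by 4.56. Sox9 and Id2 are regulators of neural progenitors among other tissues, and Cd44 is a cell-surface glycoprotein. In that comparison the summed level of the 8 neural stem cell markers was 18.9 to 29.9 FPKM in NSC-CiPSC, against 6424 FPKM in NSC, and the part of lost neural cells was not tested. Cdx1, a homeobox gene, went the other way, with 7.66 and 12.1 FPKM in IEC-CiPSC, against 0.182 FPKM in IEC. All 6 genes known to be repressed by Tcf7l1 in mouse ESC were called higher in both routes, with median log2 changes of 4.97 against NSC and 5.30 against IEC. This list consists of pluripotency genes such as Nanog, Esrrb and Nr0b1, so its rise repeats that of the pluripotency markers. Nanog had 218, 441 and 383 FPKM in NSC-CiPSC, against 0.455 FPKM in NSC. Tcf7l1 itself was called higher in NSC-CiPSC against NSC alongside them.

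Against ESC, 1 of the 98 pathway genes was called higher and 2 lower in NSC-CiPSC, where 2.81% of all genes were called, and 3 were called higher and 2 lower in IEC-CiPSC, where 3.36% were. Both counts are near those shares of all genes. In NSC-CiPSC these were Sfrp2 (1.36 on the log2 scale), Sfrp4 (-1.41) and the pluripotency factor Klf2 (-1.50). In IEC-CiPSC they were the membrane inhibitor Apcdd1 (1.34), Cd44 (1.21), Id2 (1.96), Sfrp4 (-1.65) and Shisa2 (-1.18), which holds back Frizzled maturation. Between the CiPSC groups 6 of the 98 were called, where 4.32% of all genes were (1.56% higher, 2.76% lower). Sfrp2 was higher in NSC-CiPSC (1.20), and Apcdd1 (-1.18), Amer1 (-1.03), Cd44 (-1.24), Id2 (-1.20) and Tfcp2l1 (-1.69) were lower in NSC-CiPSC than in IEC-CiPSC. Tfcp2l1, a pluripotency factor that Tcf7l1 represses in mouse ESC, had 22.0, 36.5 and 35.3 FPKM in NSC-CiPSC, against 99.5 and 101.5 FPKM in IEC-CiPSC. Over the 6 genes repressed by Tcf7l1, log2 differences between NSC-CiPSC and IEC-CiPSC ran from -1.69 (Tfcp2l1) to -0.09 (Nr0b1). All were below 0, where the median of all genes was 0.03, and 1 of 6 was called. This direction was not particular to that list. Of the pluripotency markers outside it, Pou5f1, Dppa5a and Tdgf1 were also lower in every NSC-CiPSC line than in both IEC-CiPSC lines. Pou5f1 had 1001, 935 and 848 FPKM in NSC-CiPSC lines, against 1173 and 1206 FPKM in IEC-CiPSC lines. For Zfp42 and Fgf4 the lines overlapped, and Utf1 was higher in NSC-CiPSC. The part of Tcf7l1 in these differences was not tested. Nr0b1 was not called. The genes called against ESC and between the CiPSC groups were named for their calls, after their values were seen.

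The genes whose log2 levels ran most like a member's over the 8 libraries were looked up among 9733 genes. The result is a description with no p, since the 8 libraries share groups and NSC-CiPSC line 1 stands apart for some genes. Closest to Axin2 were Tmem184c (Pearson's r = 0.986), Tfb2m (0.966) and Cep63 (0.957). Closest to Sp5 were Bend3 (0.980), Mettl6 (0.975) and Ptrh2 (0.963). Bend3 had 15.2, 4.24 and 6.04 FPKM in NSC-CiPSC lines 1, 2 and 3, against 2.30 FPKM in NSC, so it shares with Sp5 the high value of line 1. Closest to Lef1 were Snf8, Cbll1 and Cops4 (each 0.983), and closest to Lgr5 were Ctdnep1 (0.992), Dusp3 (0.989) and Bag5 (0.989). Lgr5 was at most 0.229 FPKM in the CiPSC lines and ESC. Its r values therefore rest largely on the higher levels in NSC and IEC.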

How the data were processed

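RNA came from an RNeasy Plus Mini extraction and libraries from the NEBNext Ultra kit, per the labels' protocols. The submitters' processing notes name TopHat, Cufflinks and the build mm10, and the deposited FPKM values were used unchanged. Tool versions and the annotation release are not given in the sources used here. Each file held 39009 entries with 38987 identifiers, and 27 symbols held as dates were put right by identifier. The 428 entries with status LOWDATA and the 19 with FAIL were not tested.

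FPKM sums were 661114 to 771389 per library, and 12547 to 14051 genes reached FPKM 1. The files give no totals of fragments. Of the 10 genes, Sp5 in 8 of 8 libraries and Dkk1 in the 6 where it was above 0 had 95% intervals that imply a whole number of fragments, within 0.02 and up to 60, and no fragment numbers are given for the others. For Sp5 these gave depths of 0.909 to 1.04 relative to ESC. Such intervals and fragment numbers cover counting error only.

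The test took the 17011 genes that reached FPKM 1 in any library, on log2(FPKM + 1), with a pseudocount of 1. The limma package (3.58.1, R 4.3.3) estimated the means of 5 groups from 8 libraries together, with trended empirical Bayes moderation (3 residual and 1.10 prior degrees of freedom). The difference between routes is an interaction of the 4 group means. Two-sided p-values were adjusted by the Benjamini-Hochberg method across these genes. Promoters and start sites are from RefSeq (GRCm38.p6). The alternatives were the pseudocount, the filter, the scaling, the trend, the entry status, the libraries in the fit and leaving out each line.

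The 10 genes, the pathway and marker lists and the tests were chosen with earlier results of these data known. Beside the 10 genes, up to 3 called genes of each pathway list in each route could be named, those with the largest change and a mean FPKM of 5 or more in whichever group was higher, and for Axin2, Sp5, Lef1 and Lgr5 the 3 genes with the highest correlation.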

Additional observations from a re-analysis of the deposited data

Results flagged for a closer look

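In the interaction test of limma, with Benjamini-Hochberg adjustment, 3 of the 9 tested genes had an adjusted p under 0.05. For these the change along the neural route (NSC-CiPSC against NSC) differed from that along the intestinal route (IEC-CiPSC against IEC). With the 2-fold rule 2 of the 9 were called, where 30.5% of all genes tested were called. Nkd1 differed by 3.10 on the log2 scale (adjusted p = 0.00565), with 0.335 to 1.09 FPKM in the 5 CiPSC lines, against 3.62 FPKM in NSC and 29.6 FPKM in IEC. Tcf7l1 differed by 1.49 (adjusted p = 0.00645), with 49.8 ± 4.8 FPKM in NSC-CiPSC (SD, n = 3) and 28.8 ± 0.36 FPKM in IEC-CiPSC (SD, n = 2), against 13.1 FPKM in NSC and 22.2 FPKM in IEC. Ctnnb1 differed by -0.53 (adjusted p = 0.00867), under 2-fold. The 5 groups hold 1 to 3 libraries each, too few for a check of single outlying samples.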

How the results depend on the processing

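No paired analysis was possible because the groups compared share no replicate numbers that link their samples. Over the tested genes, 588 of 639 recomputed changes kept their direction and their status as called or not called, 19 lost a call, 4 gained one and 28 turned sign, none of these last with an adjusted p under 0.05. The signs that turned were of changes that were not called, and the largest absolute value after a turn was 0.453 on the log2 scale. Quantile normalization gave 0.25 for Axin2 in IEC-CiPSC against IEC, -0.030 for Tcf7 in NSC-CiPSC against ESC, -0.0064 for Tcf7 between the CiPSC groups, and, between routes, -0.21 for Sp5, -0.45 for Lgr5 and -0.43 for Tcf7. Median-of-ratios scaling gave -0.0045 for Lef1 and -0.042 for Tcf7 in NSC-CiPSC against ESC, and -0.034 for Tcf7 between the CiPSC groups.

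With 1 line left out, changes in NSC-CiPSC against ESC ran from -0.17 to 0.43 for Sp5, -0.029 to 0.12 for Lgr5, -0.24 to 0.29 for Lef1 and -0.11 to 0.14 for Tcf7. In IEC-CiPSC against ESC they ran from -0.065 to 0.092 for Sp5, -0.060 to 0.11 for Lgr5 and -0.057 to 0.041 for Tcf7. Between the CiPSC groups they ran from -0.040 to 0.36 for Axin2, -0.18 to 0.42 for Sp5, -0.052 to 0.12 for Lgr5, -0.29 to 0.24 for Lef1 and -0.097 to 0.15 for Tcf7. Between routes they ran from -0.19 to 0.40 for Sp5 and -0.041 to 0.21 for Tcf7.

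The number of the 10 genes called was 3 in NSC-CiPSC against NSC and 0 in NSC-CiPSC against ESC when only the libraries compared were fitted, and with 1 line left out it ran from 3 to 6 and from 0 to 1. It ran from 2 to 4 in IEC-CiPSC against IEC. Among all genes, that smaller fit called 202 in NSC-CiPSC against ESC and 123 in IEC-CiPSC against ESC, where the fit to 8 libraries called 478 and 572. With 1 line left out these ran from 187 to 720 and from 153 to 890, and between the CiPSC groups from 99 to 789 (735 with all lines). These fits have fewer samples, and a line left alone in its group is assumed to vary like the others. Quantile normalization moved the median log2 change of all genes to 0.15 in IEC-CiPSC against IEC and to -0.14 between routes, with 4080 genes higher and 3674 lower (3252 and 4462 without it) and 2552 higher and 2818 lower (2989 and 2202). At the depth of these libraries, Dkk1, Lgr5 and Sp5 rest on few fragments.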
